A study of Schizosaccharomyces pombe with 261 samples.

Results

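The genes described here lie within 50 kb of the 4 ends of chromosomes I and II of the fission yeast Schizosaccharomyces pombe, by the positions in the deposited files. They number 81 of the 6968 genes that have a position there. The left end of chromosome I holds 25 of them and its right end 19, and chromosome II holds 19 at its left end and 18 at its right end. By their annotated products, 62 are protein coding, 10 are non-coding RNAs and 9 are pseudogenes, and for the results below they were sorted into 3 helicase genes, 5 transporters, 4 cell surface proteins, 8 membrane proteins of no named function, 11 enzymes of metabolism, 2 transcription factors and 29 others. Their median length was 891 bases, against 1554 bases over all genes. The limit of 50 kb cuts through continuous chromosome sequence. On the right arm of chromosome II, SPNCRNA.1697, the last gene inside it, averaged 8.41 CPM (counts scaled to 1000000 per TMM-adjusted library size) in the unheated libraries labelled clr4Δ and 5.11 CPM in the unheated wild type of the same comparison, and gal10, 52.2 kb from the end and the nearest gene outside it, averaged 25.8 and 13.5 CPM in the same libraries.

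The study followed messenger RNA through the first minutes of a shift to 37.5 °C in 39 libraries, 3 for each of 13 groups, in sets named RNA1, RNA2 and RNA3. Set RNA3 held the deletion strains: clr4Δ::NatMX6 at 0, 2.5 and 5 min of heat, atf1Δ::KanMX6 at 0 and 5 min, and pcr1Δ::KanMX6 at 0 and 5 min. Wild type was sampled at 0, 2.5 and 5 min in RNA2 and at 0, 5 and 25 min in RNA1. All groups, wild type included, were of mating type h+. All carried the leu1-32 allele together with ade6-DN/N and ura4-DS/E, and had marker genes placed in a centromere as otr1R::ade6+ and imr1L::ura4+. Cultures grew in YES medium at 30 °C to mid-log phase, and the 0 min cultures were harvested without heat. RNA3 has no wild type libraries, so strain and set cannot be told apart in any comparison of a deletion with wild type. The ChIP-seq and PRO-seq samples of the series were not analysed here.

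Fission yeast packs the DNA next to its telomeres into heterochromatin, a compact state marked by methylation of lysine 9 of histone H3. Clr4 is the methyltransferase that places this mark, and HP1 proteins such as Swi6 bind it. The subtelomeres of chromosomes I and II are built of repeated blocks, so many of their genes have near-identical copies at another end. The bZIP proteins Atf1 and Pcr1 act as a pair downstream of the stress kinase Sty1 and bind the sequence TGACGT, and Atf1 also takes part in placing heterochromatin at the mating type locus.

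The labels of the deletion strains were checked first, by the reads of each deleted gene. The clr4 gene itself was read at 175 ± 4.16 CPM in the unheated libraries labelled clr4Δ. In unheated RNA2 wild type it was read at 43.7 ± 0.849 CPM (SD, n = 3 each). These reads do not show the deletion, but the counts are totals per gene and do not tell which part was read. Reads of atf1 averaged 128 CPM in the unheated libraries labelled atf1Δ, and 131 and 213 CPM in unheated RNA1 and RNA2 wild type. Reads of pcr1 averaged 42.3 CPM in the unheated libraries labelled pcr1Δ, and 64.1 and 71.7 CPM in the same wild type groups. After 5 min of heat the gaps were wider. Reads of atf1 then averaged 168 CPM with the atf1Δ label, and 718 and 572 CPM in RNA1 and RNA2 wild type. Those of pcr1 averaged 53.3 CPM with the pcr1Δ label, and 363 and 290 CPM in wild type. The centromeric marker gene ura4 stood at 183 ± 18.2 CPM in the clr4Δ-labelled libraries and 82.3 ± 2.38 CPM in RNA2 wild type, and ade6 at 387 ± 36.2 and 262 ± 13.5 CPM. Strains are therefore called by their labels throughout. Libraries held 6573143 to 12588425 counts in genes. The labels do not say that the 3 libraries of a group came from separate cultures, so each p-value reflects just the scatter among these libraries, which may be technical.

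Counts and a signal from the same libraries were both used, since they treat copied sequence differently. The deposited gene counts hold reads that map to 1 place only. The deposited signal, available for RNA2 wild type and the clr4Δ-labelled libraries, also counts reads that map to several places, once at every copy, so near copies share reads and their signals are not separate measurements. By counts, 15 of the 81 genes had no read in any library, and 28 passed the filter on low counts. By signal, 62 passed. Genes can pass either filter through the clr4Δ-labelled libraries alone, and 17 genes were tested by neither measure.

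The clearest case of shared reads is the helicase pair tlh1 and tlh2, RecQ-type helicase genes that are the first gene of chromosome I and the last gene of chromosome II in the files. Tlh1 spans 1 to 5662 of chromosome I on the minus strand, and tlh2 spans 4526885 to 4532899 of chromosome II on the plus strand. Over the 5662 bases of tlh1, 5661 were the same in tlh2, and the exception was C303T, with tlh1 as the first base and positions counted from 1 at the start of the gene. The 61 bases around that position, from RefSeq in build ASM294v3, are shown because they hold the whole difference between the genes over this length, with the differing base in capitals (I:5330-5390, minus strand, and II:4527157-4527217, plus strand).
tlh1: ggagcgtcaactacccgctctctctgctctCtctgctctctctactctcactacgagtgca
tlh2: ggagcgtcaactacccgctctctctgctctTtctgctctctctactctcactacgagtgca
The windows from 250 bases before to 50 bases after their starts are shown because the pair has the largest change in signal described below and the windows, too, are copies. They matched at 299 of 300 bases, with T185A counted from the 5′ end of the window (I:5613-5912, minus strand, and II:4526635-4526934, plus strand).
tlh1 start: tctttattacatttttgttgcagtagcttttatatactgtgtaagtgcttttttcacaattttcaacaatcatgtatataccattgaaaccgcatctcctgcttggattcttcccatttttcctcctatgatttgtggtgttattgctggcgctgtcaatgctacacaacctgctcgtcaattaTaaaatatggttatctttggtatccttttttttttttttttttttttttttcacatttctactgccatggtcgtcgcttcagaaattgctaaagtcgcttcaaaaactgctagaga
tlh2 start: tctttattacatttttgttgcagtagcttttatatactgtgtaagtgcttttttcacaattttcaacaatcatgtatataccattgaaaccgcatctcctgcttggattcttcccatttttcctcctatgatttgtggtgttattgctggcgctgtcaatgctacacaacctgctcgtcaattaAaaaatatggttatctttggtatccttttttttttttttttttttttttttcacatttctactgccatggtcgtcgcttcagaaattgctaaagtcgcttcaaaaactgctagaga

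The comparison of the clr4Δ label with wild type addresses the RNA of these genes in a strain described as deleted for the enzyme that marks heterochromatin, a deletion that the clr4 reads above do not show. In the unheated libraries labelled clr4Δ, 18 of the 28 genes tested by counts were higher than in unheated RNA2 wild type and none was lower (edgeR quasi-likelihood test, adjusted p under 0.05 over all genes tested). Over all 6172 genes tested, 3.73% were called in this comparison and 2.67% were called as higher. The median log2 change of the 28 genes was 1.67, and it is the same with the 3 genes that had no wild type read set at their lower bounds. By signal, 35 of 62 genes were higher and none was lower, with a median of 1.20 (limma), where 2.91% of all genes were called and 2.47% were called as higher. Without the filters, the calls were 18 of 66 genes by counts and 38 of 80 by signal, again with none lower. All 3 clr4Δ-labelled libraries lay above all 3 wild type libraries for 20 of the 28 genes by counts and for 45 of the 62 by signal. The same count was not made over all genes, so it has no background to be set against. Near copies among the 62 share reads, and genes could pass either filter through the clr4Δ-labelled libraries alone. Fitting only the 2 groups compared gave 10 calls by counts, and fitting all 13 groups gave the 18.

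**Figure D1:**
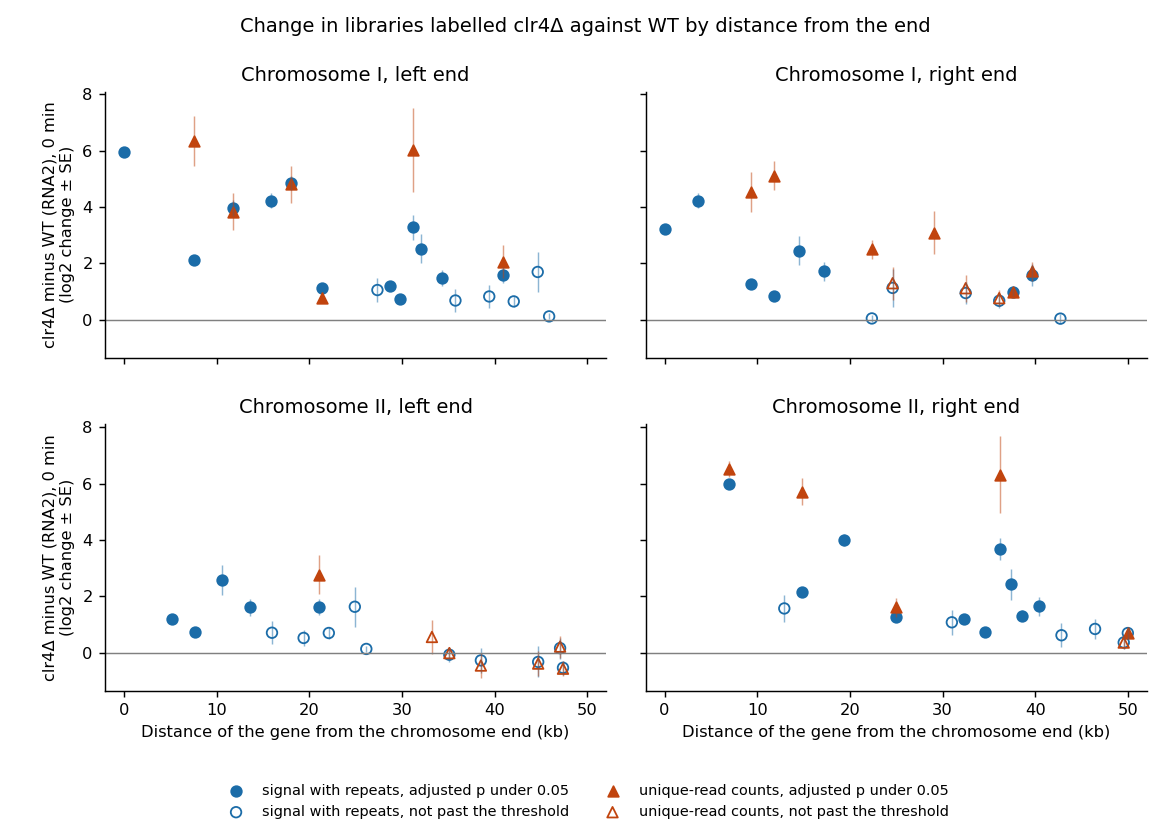
Log2 change between unheated libraries labelled clr4Δ and unheated RNA2 wild type (vertical axis, ± SE) against distance from the chromosome end in kb (horizontal axis), one panel for each of the 4 ends. Circles are signal and triangles are counts, and filled symbols passed the test; the 8 genes tested by signal in the outermost 10 kb were all higher, with a median of 2.68.

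By signal, the helicase genes changed most. Tlh1 had a signal of 48.0, 53.6 and 44.5 per base in the 3 unheated clr4Δ-labelled libraries, against 0.776, 0.712 and 0.849 per base in the 3 wild type libraries. Tlh2 had 49.8, 55.4 and 45.9 per base in the clr4Δ-labelled libraries, against 0.768, 0.721 and 0.852 in wild type. The groups did not overlap, and the means differed 62.5-fold for tlh1 and 64.5-fold for tlh2. The log2 changes in signal were 5.95 ± 0.15 and 5.996 ± 0.16 (SE, limma adjusted p = 6.43e-15 for each).

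Only tlh2 was tested by counts, since tlh1 received 0 to 5 uniquely mapped reads per library. Tlh1 differs from tlh2 at 1 base over its length, and 94.1% of tlh2 is also found elsewhere. The counts therefore cannot compare the levels of the 2 genes. Tlh2 had 57.7, 60.6 and 50.5 CPM in the clr4Δ-labelled libraries and 0.510, 0.624 and 0.682 CPM in wild type, a log2 change of 6.51 ± 0.29 (edgeR adjusted p = 4.58e-18). SPAC212.06c, annotated as a helicase-like protein 18 kb from the left end of chromosome I and a near copy of part of the tlh genes, had a signal of 28.1, 29.8 and 28.1 per base in the clr4Δ-labelled libraries and 1.13, 0.737 and 0.976 in wild type. Its log2 changes were 4.86 ± 0.25 in signal (limma adjusted p = 1.29e-10) and 4.81 ± 0.67 in counts (edgeR adjusted p = 8.39e-06). In this class every gene tested was higher, 3 of 3 by signal and 2 of 2 by counts.

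**Figure D2:**
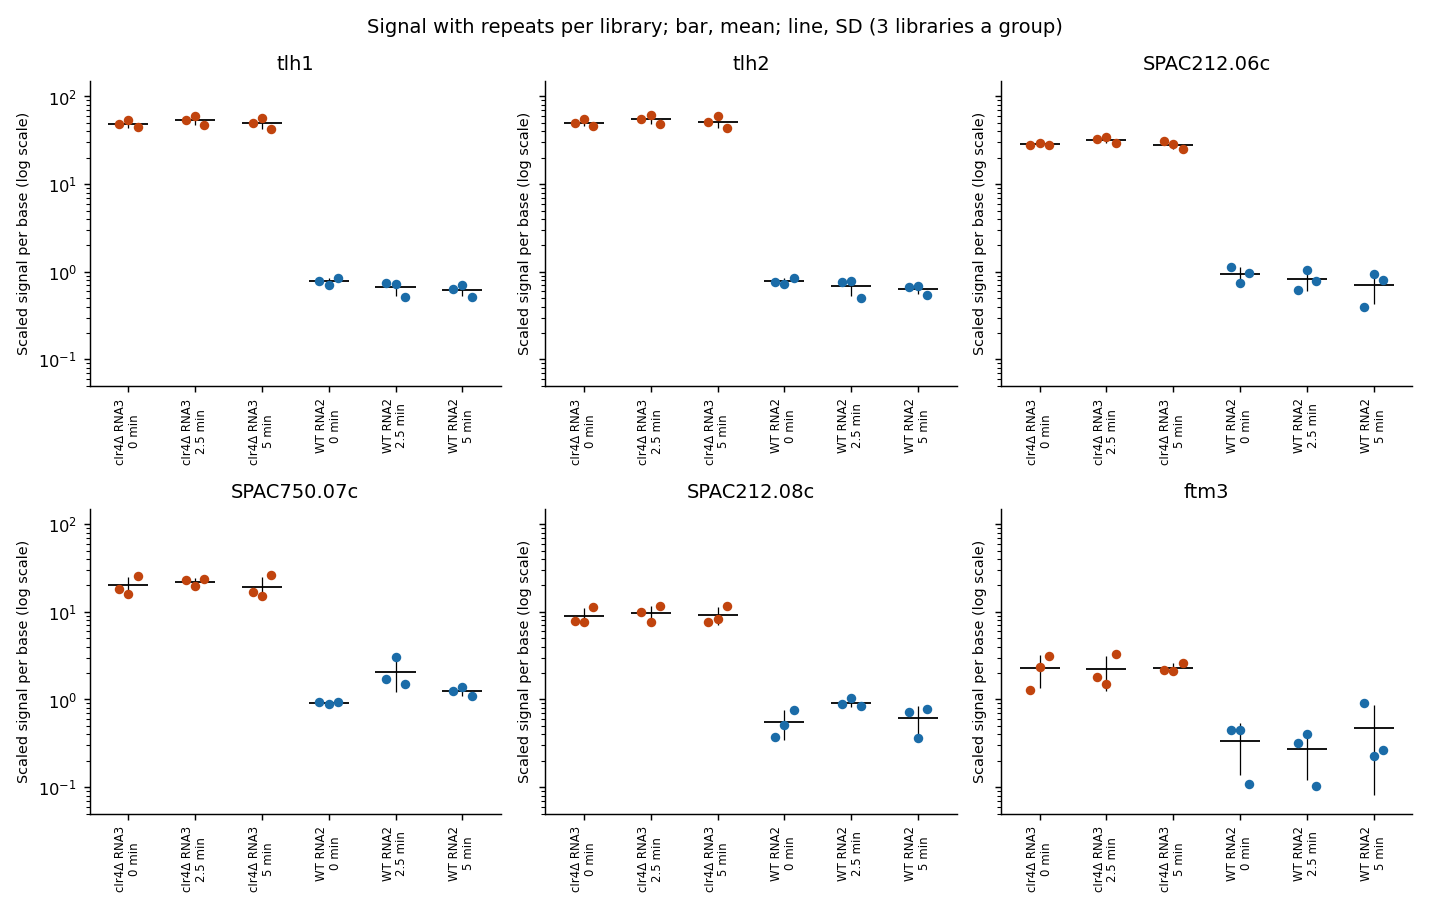
Signal per base on a log axis for 6 genes in libraries labelled clr4Δ and in RNA2 wild type at 0, 2.5 and 5 min of heat, one point per library. Every clr4Δ-labelled point lies above every wild type point of the same gene at 0 min, from SPAC212.06c at 28.1 against at most 1.13 per base to ftm3 at 1.29 or more against at most 0.453.

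The 4 cell surface genes split by copy family. SPAC212.08c and SPAC212.12, annotated as GPI-anchored proteins, which are held at the outside of the cell by a lipid anchor, were higher by signal. SPAC212.08c had 7.80, 7.61 and 11.3 per base in the clr4Δ-labelled libraries against 0.370, 0.507 and 0.768 in wild type (log2 change 3.95 ± 0.29, limma adjusted p = 2.54e-08). SPAC212.12 and SPAC750.07c, copies on the left and right ends of chromosome I, had identical signals of 18.3, 15.9 and 25.8 per base against 0.945, 0.892 and 0.926 (log2 change 4.23 ± 0.26, limma adjusted p = 2.22e-09). The pseudogene SPBCPT2R1.06c, of the same family on chromosome II, changed by 4.01 ± 0.22. The glycoprotein genes pfl6 and SPBC1348.08c, near copies of each other 42.1 and 22.1 kb from their ends, had log2 changes of 0.65 and 0.70 that missed the threshold (limma adjusted p = 0.123 and 0.0832).

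All 8 membrane protein genes of no named function, ftm1 to ftm7 and SPBPB2B2.19c, were higher by signal, and they fell into 2 families of near copies with different levels and changes. In the first family, ftm2, ftm3, ftm6 and ftm7 had low signals in wild type. Ftm3 had a signal of 1.29, 2.37 and 3.15 per base in the clr4Δ-labelled libraries and 0.453, 0.448 and 0.108 in wild type, and the 4 log2 changes ran from 2.42 to 2.58. Ftm6 lost its call when wild type 0 min replicate 3 or clr4Δ-labelled 0 min replicate 3 was left out, at 2.09 and 2.35.

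In the other family, ftm1, ftm4, ftm5 and SPBPB2B2.19c were read in both strains. Ftm1 had 49.4, 48.9 and 50.6 per base in the clr4Δ-labelled libraries and 36.0, 30.5 and 24.4 in wild type, and the 4 log2 changes in signal ran from 0.73 to 0.86. Ftm4 had 5.40, 7.02 and 6.28 CPM of uniquely mapped reads in the clr4Δ-labelled libraries and 0.204, 0.312 and 0 CPM in wild type. Its count change was 5.11 ± 0.52 on the log2 scale (edgeR adjusted p = 3.66e-08), against 0.86 ± 0.13 for its signal, which also holds the reads of its copies.

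Of the 5 transporters, 3 were higher by signal. SPBC1348.05 had 3.55, 2.61 and 4.65 per base in the clr4Δ-labelled libraries and 0.654, 1.56 and 1.42 in wild type, a log2 change of 1.61 ± 0.29 (limma adjusted p = 0.00296). Its near copies SPAC750.02c and SPBPB2B2.16c changed by 1.72 ± 0.35 and 1.64 ± 0.33, and the third copy, the shorter SPAC977.04, by 1.48 ± 0.28. Ght7, a hexose transporter gene, and SPBPB8B6.02c, annotated as a urea transporter, have no call in this comparison. Their log2 changes were −0.28 ± 0.45 and −0.33 ± 0.55 by signal.

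The pseudogenes SPAC212.09c and SPBCPT2R1.07c and the malic enzyme gene SPAC750.08c form a family that also resembles mae2, a malic enzyme gene outside the subtelomeres. SPBCPT2R1.07c had 11.2, 8.53 and 8.70 CPM in the clr4Δ-labelled libraries and 0, 0.416 and 0.0974 CPM in wild type, and no read in any library labelled atf1Δ or pcr1Δ or in RNA1 wild type. SPAC212.09c had 27 reads in the 3 unheated clr4Δ-labelled libraries and 0 reads in the 3 wild type libraries, at least 9.41-fold higher against a floor of 3 counts over the group. SPBPB2B2.18 and SPAC977.18, uncharacterised genes that are near copies of each other, had 26 and 21 reads against 0, at least 9.06-fold and 7.32-fold higher. SPAC750.08c, the last gene at the right end of chromosome I, had a signal of 144, 138 and 137 per base in the clr4Δ-labelled libraries and 17.2, 12.5 and 14.8 in wild type (log2 change 3.24 ± 0.12, limma adjusted p = 2.3e-12). Mae2 was not called in this comparison, with a log2 change of 0.23 in counts.

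A further family of 6 uncharacterised genes, SPAC212.04c, SPAC212.01c, SPAC750.06c, SPBC1348.01, SPBCPT2R1.01c and SPBCPT2R1.04c, had log2 changes in signal from 1.15 to 1.26. SPBC1348.01 had 33.7, 31.9 and 36.3 per base in the clr4Δ-labelled libraries against 15.3, 14.9 and 13.99 in wild type. Their unique reads differed more between the genes. SPAC750.06c had 1.54, 1.84 and 2.13 CPM against 0, 0.208 and 0 (log2 change 4.55 ± 0.71, edgeR adjusted p = 8.58e-05). SPBCPT2R1.04c had 4.11, 5.07 and 3.87 CPM against 1.02, 2.08 and 1.17 (1.61 ± 0.33, edgeR adjusted p = 0.00247), and SPAC212.04c 5.14, 5.72 and 7.73 CPM against 3.88, 3.43 and 3.51 (0.79 ± 0.20, edgeR adjusted p = 0.0159).

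Gdt1, which encodes a GDT1-like membrane protein, was the most highly read of the 28 tested genes per unit length, at 95.1 CPM per kb in the unheated clr4Δ-labelled libraries and 48.1 in RNA2 wild type. It had 157, 131 and 132 CPM in the clr4Δ-labelled libraries, against 74.5, 76.1 and 61.8 CPM in wild type, with no overlap. The log2 change was 0.98 ± 0.17 in counts (edgeR adjusted p = 0.00027) and 0.98 ± 0.12 in signal (limma adjusted p = 5.31e-05). Gdt1 has no near copy, and it lies 37.6 kb from the right end of chromosome I. SPAC186.04c, its uncharacterised neighbour, also has none, and had 2.83, 4.54 and 2.71 CPM in the clr4Δ-labelled libraries against 0.816, 1.04 and 1.17 in wild type (1.72 ± 0.35, edgeR adjusted p = 0.00213).

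Among the non-coding RNAs, SPNCRNA.287 and SPNCRNA.601, near copies on the left ends of chromosomes II and I, were higher by counts (log2 changes 2.77 ± 0.69 and 2.06 ± 0.58, edgeR adjusted p = 0.0159 and 0.0357) and by signal (1.61 and 1.59). SPNCRNA.448 was higher by signal, at 1.31 ± 0.19 (limma adjusted p = 0.000268). SPNCRNA.1697, the antisense RNA of gal1, was higher by counts with 10.2, 7.34 and 7.73 CPM against 4.59, 4.78 and 5.94 (0.71 ± 0.19, edgeR adjusted p = 0.03). The strand setting of the counting is not given in the sources used here, so reads of an overlapping pair such as this may not be separable. The transcription factor genes grt1 and SPBC1348.12 had log2 changes of −0.57 and −0.02 by counts and were not called.

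The calls were set beside the distance from the end. By signal, all 8 genes tested in the outermost 10 kb were higher, and then 10 of 13, 5 of 11, 10 of 17 and 2 of 13 in each further 10 kb, with median log2 changes of 2.68, 2.15, 1.13, 1.08 and 0.62. Counting the genes that did not pass the filter, these ranges held 10, 17, 17, 21 and 16 genes. No test of this order was made, since copies at different distances share reads. By arm, 12 of 18 genes were higher by signal on the left of chromosome I and 8 of 13 on its right, 5 of 15 on the left of chromosome II and 10 of 16 on its right. Of the 16 genes that are the 4 nearest to each end, 12 were higher by signal, and the pseudogene SPBCPT2R1.10 had a log2 change of 1.57 ± 0.49 that was not called (limma adjusted p = 0.116). The remaining 3, SPAC212.10, SPNCRNA.70 and SPBC1348.15, had a mean signal under 500 and did not pass the filter. By counts, SPAC212.10 had 3 reads over all 39 libraries, SPNCRNA.70 had 1 and SPBC1348.15 had none. Over all distances, 26 genes were tested and called by neither measure. Beyond the limit, between 50 and 100 kb, 8 of the 76 genes tested by counts were higher and none was lower. Their median log2 change was 0.32 over the 76 genes, and 2.67% of all genes were called as higher in this comparison.

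Sequence copies ran through most of these calls. Of 80 genes with sequence in the annotation, 59 shared at least 90% identity over at least 30% of their length with another gene, and 21 did not. By counts, 13 of the 59 genes with such a copy were higher and 5 of the 21 without one, out of 13 and 15 that passed the filter. Copied genes with few unique reads could pass it through the clr4Δ-labelled libraries alone, so these shares are not compared. SPAC212.04c is among the 21, since its own search found no copy. It still joins a family below, because the search of SPBCPT2R1.01c matched it. Linking the copies gave 19 families with 58 members, and 33 of the 35 genes higher by signal belonged to 10 of these families. In each of the 10, every member tested by signal was higher. The calls by signal that stand outside the families are gdt1 and SPAC186.04c.

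A comparison within set RNA3, of the unheated clr4Δ-labelled libraries with the mean of the unheated libraries labelled atf1Δ and pcr1Δ, removes the difference in set but compares different deletions. It called 21 of the 28 genes as higher and 2 as lower (edgeR), where 50.5% of all genes were called and 26.1% as higher. Of the 21 genes, 16 were also higher against RNA2 wild type by counts. The other 5, SPAC186.06, SPBPB8B6.02c, fah1, gal1 and grt1, were not called against it. Tlh2 differed by 5.97 ± 0.20 (edgeR adjusted p = 1.63e-21), with means of 56.2 ± 5.22 CPM in the clr4Δ-labelled libraries, 0.849 ± 0.138 in the atf1Δ-labelled and 0.918 ± 0.371 in the pcr1Δ-labelled libraries (SD, n = 3 each). Gdt1 differed by 1.66 ± 0.14 (edgeR adjusted p = 1.76e-11), with 140 ± 14.6, 49.3 ± 12.8 and 39.8 ± 6.01 CPM. Ght7 and SPBC1348.12 were the lower genes, at −2.08 ± 0.37 and −1.02 ± 0.17, and neither was called against RNA2 wild type.

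SPAC750.01, an aldo/keto reductase gene 22.4 kb from the right end of chromosome I, shows a difference that follows the set. It averaged 38.4 ± 9.51 CPM in the unheated clr4Δ-labelled libraries, and 38.8 ± 9.96 and 41.8 ± 6.19 CPM in the unheated libraries labelled atf1Δ and pcr1Δ, against 8.11 ± 0.451 CPM in RNA1 and 6.77 ± 1.41 CPM in RNA2 wild type (SD, n = 3 each). All RNA3 groups were high and all wild type groups were low. The log2 difference between the clr4Δ-labelled libraries and RNA2 wild type was 2.50 ± 0.34 (edgeR adjusted p = 6.6e-06), and that between the clr4Δ-labelled libraries and the other deletions was −0.06. By signal, which includes the reads of its near copy SPAC977.14c, the clr4Δ-labelled libraries had 253, 242 and 316 per base and wild type had 294, 256 and 233, a log2 change of 0.05 (limma adjusted p = 0.885). For this gene strain and set cannot be told apart.

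**Figure D3:**
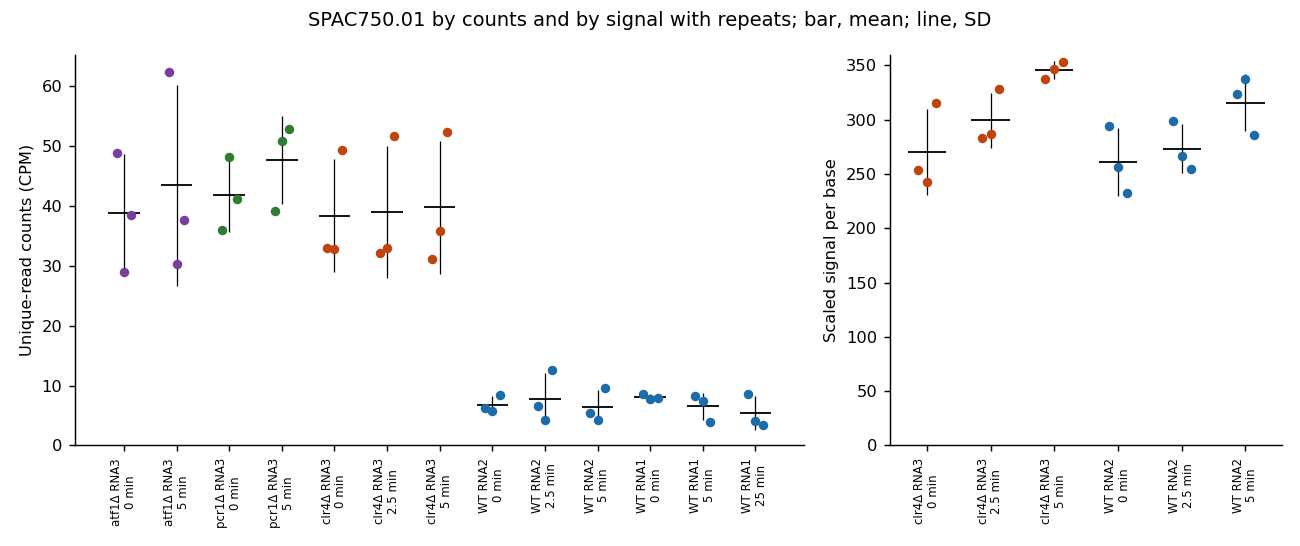
SPAC750.01 in CPM of uniquely mapped reads in all 13 groups (left) and in signal per base in the 6 groups that have it (right), one point per library. The deletion groups of set RNA3 average 38.4 CPM or more at 0 min and wild type at most 8.11, while the signal of the unheated clr4Δ-labelled and wild type libraries overlaps.

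The libraries as a whole held more subtelomeric reads in the clr4Δ-labelled group. The 81 genes took 0.0393 ± 0.000928% of the counts in unheated clr4Δ-labelled libraries and 0.0190 ± 0.00172% in unheated RNA2 wild type (SD, n = 3 each). A few genes carried much of the difference. In the clr4Δ-labelled libraries the 81 genes had 3167, 3544 and 3881 reads, of which gdt1 held 1219, 1213 and 1365, tlh2 449, 561 and 522, and SPAC750.01 257, 304 and 511. In wild type they had 1796, 1781 and 1747, of which gdt1 held 730, 732 and 634, tlh2 5, 6 and 7, and SPAC750.01 61, 55 and 86. Of the 81 genes, 36 had reads in all 3 unheated clr4Δ-labelled libraries and 22 in all 3 wild type libraries. The genes of the pathway itself were also examined at 0 min. In a list of 22 heterochromatin and RNA interference genes, 21 were tested, and clr4 alone was called as higher and none as lower. Swi6, which encodes the HP1 protein, had a log2 change of −0.33 ± 0.12 (edgeR adjusted p = 0.11). In a list of 12 telomere and subtelomere protein genes, all 12 were tested and none was called, with taz1, whose product binds telomeric DNA, at −0.21 ± 0.11 (edgeR adjusted p = 0.311).

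Heat was the other variable of the study. After 2.5 min, none of the 28 genes was called in the clr4Δ-labelled libraries or in RNA2 wild type (edgeR; 2 genes in each at an unadjusted p under 0.05, and 1 called in each with replicate number as a block), where 1.57% and 1.73% of all genes were called. After 5 min, 3 were higher and 2 lower in the clr4Δ-labelled libraries, against 30.2% of all genes called, and 3 were higher and 2 lower in RNA2 wild type, against 27.2%. In RNA1 wild type 5 were higher and 1 lower after 5 min (48.4% of all genes called), and 5 were higher and 9 lower after 25 min (67.3%). Between 5 and 25 min, 3 were higher and 5 lower (58.1%). In each of these comparisons at 5 and 25 min the share of the 28 genes that was called lay below the share over all genes. That cannot show a weaker heat response, because genes could pass the filter through the clr4Δ-labelled libraries alone. SPAC212.09c and SPBCPT2R1.07c had 0 reads in every RNA1 library, so neither could be called there. At 0 min, 13 subtelomeric genes had at least 10 reads in all 3 RNA1 libraries, and 11 in RNA2 wild type. The clr4Δ-labelled libraries had 19 such genes. The number of calls at 5 min in RNA2 wild type was 3 without 5 min replicate 1 or 0 min replicate 3. In the clr4Δ-labelled libraries it was 3 without 0 min replicate 1 or 5 min replicate 3.

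**Figure D4:**
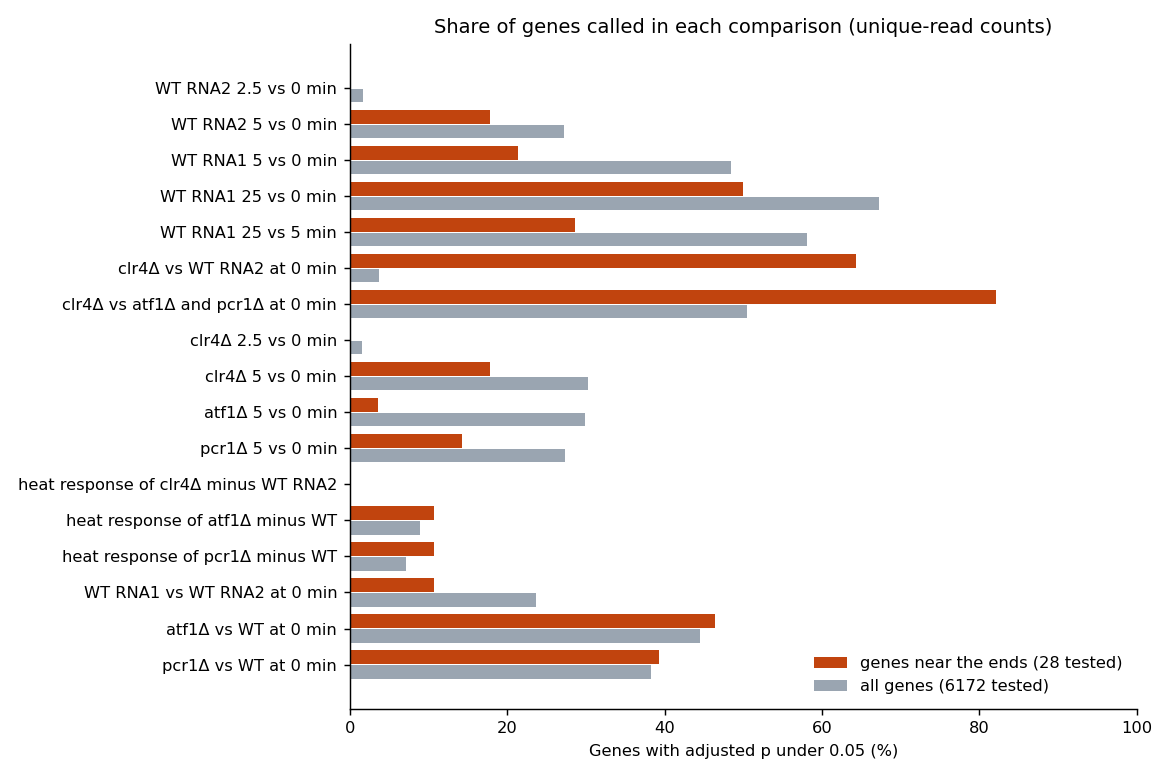
Percent of genes called at an adjusted p under 0.05 in 17 comparisons by counts, for the 28 subtelomeric genes tested and for all 6172 genes tested. The subtelomeric share stands furthest above the share over all genes where the clr4Δ-labelled libraries are compared with other strains at 0 min, at 64.3% against 3.73% and 82.1% against 50.5%, among genes that could pass the filter through the clr4Δ-labelled libraries alone.

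Gal1, which encodes galactokinase and lies 49.5 kb from the right end of chromosome II, had the strongest rise at 5 min by its p-value. In RNA1 wild type it had 27.5, 27.6 and 30.4 CPM at 0 min, 126, 163 and 142 CPM at 5 min and 57.3, 89.8 and 88.9 CPM at 25 min. All heated libraries were above all unheated ones. The log2 change was 2.34 ± 0.22 at 5 min (edgeR adjusted p = 8.82e-11) and 1.46 ± 0.22 at 25 min (edgeR adjusted p = 4.56e-07), and the level at 25 min was lower than that at 5 min, with a log2 difference of −0.88 ± 0.21. In RNA2 wild type gal1 had 55.5, 47.6 and 37.1 CPM at 0 min, 67.4, 68.9 and 41.8 CPM at 2.5 min and 135, 120 and 83.7 CPM at 5 min (5 min change 1.27 ± 0.21, edgeR adjusted p = 1.62e-05).

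The clr4Δ-labelled libraries had a like rise of gal1, with 144, 180 and 125 CPM at 5 min and 64.8, 65.0 and 49.97 CPM at 0 min (1.33 ± 0.21, edgeR adjusted p = 6.72e-06). The difference between the 2 responses was 0.05 and was not called. In the atf1Δ-labelled libraries gal1 had 13.6, 14.3 and 20.3 CPM at 5 min and 7.13, 9.96 and 12.9 CPM at 0 min, a log2 change of 0.68 ± 0.27 that missed the threshold (edgeR adjusted p = 0.0503). In the pcr1Δ-labelled libraries it had 15.9, 22.5 and 23.7 CPM at 5 min and 11.03, 14.2 and 13.4 CPM at 0 min (0.68 ± 0.25, edgeR adjusted p = 0.0361). The response differed from the mean wild type response by −1.13 ± 0.31 with the atf1Δ label (edgeR adjusted p = 0.014) and by −1.12 ± 0.29 with the pcr1Δ label (edgeR adjusted p = 0.0102). Against RNA2 wild type alone both differences were −0.59 and neither was called.

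SPNCRNA.1697, whose whole length of 1146 bases lies antisense within gal1, went the other way. In RNA1 wild type it had 1.91, 1.91 and 2.12 CPM at 5 min and 7.31, 5.48 and 8.35 CPM at 0 min, with no overlap (log2 change −1.83 ± 0.22, edgeR adjusted p = 2.2e-08). It fell by 0.77 at 5 min in RNA2 wild type, 0.96 in the clr4Δ-labelled, 1.08 in the atf1Δ-labelled and 1.12 in the pcr1Δ-labelled libraries, all called. It was the only gene of the 28 called after 5 min in the atf1Δ-labelled libraries, where 29.9% of all genes were called. The count of 1 was 2 with DESeq2, with DESeq2-type size factors, with no filter or with only the groups compared, 3 with library totals and 5 with replicate number as a block. Without single libraries it was 1 to 3, at 3 without 5 min replicate 1 and 2 without 0 min replicate 2 or 3.

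**Figure D5:**
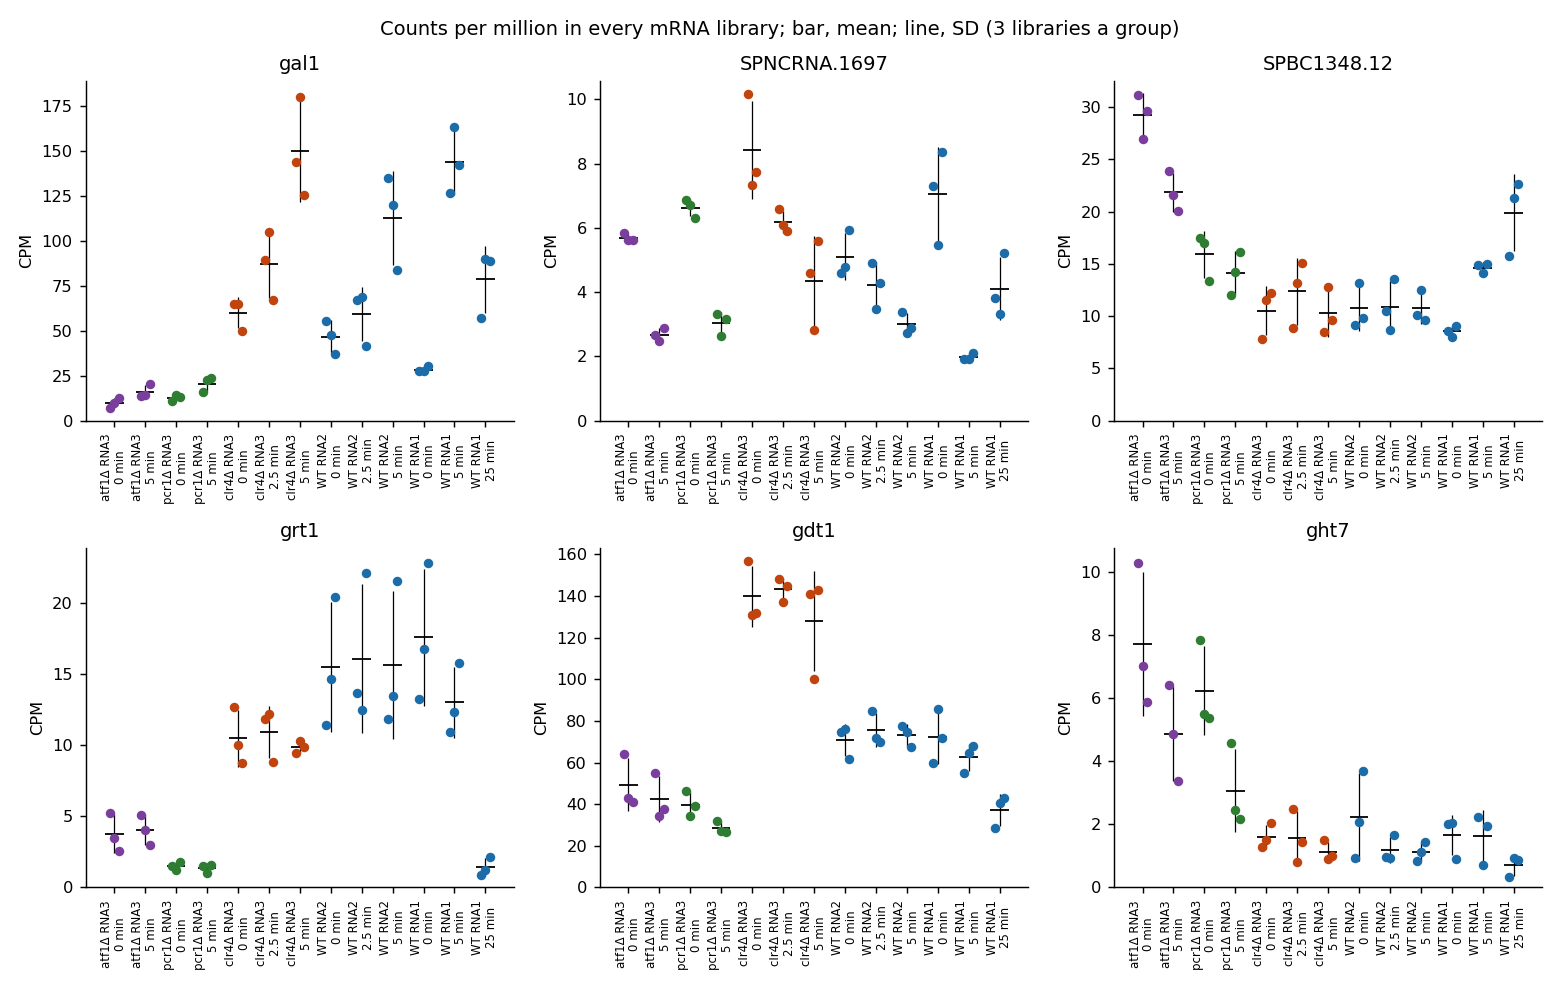
CPM of 6 subtelomeric genes in all 13 groups, one point per library. In RNA1 wild type gal1 stands at 126 to 163 CPM after 5 min and 27.5 to 30.4 CPM at 0 min, and grt1 at 0.891 to 2.13 CPM after 25 min and 13.3 to 22.8 CPM at 0 min.

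Grt1, a transcription factor gene 47.4 kb from the left end of chromosome II, had the largest fall at 25 min. It had 0.891, 1.24 and 2.13 CPM at 25 min and 13.3, 16.8 and 22.8 CPM at 0 min, a log2 change of −3.64 ± 0.33 (edgeR adjusted p = 1.27e-11). At 5 min it had 10.95, 12.4 and 15.8 CPM and was not called. Its neighbours on that arm also fell at 25 min, fah1, an acetamidase gene that overlaps grt1 on the other strand over 1703 bases, by 1.16, the urea transporter gene SPBPB8B6.02c by 1.39 and ght7 by 1.28. The other falls at 25 min were gdt1 by 0.96, SPNCRNA.1697 by 0.77, SPNCRNA.601 by 1.68, SPNCRNA.287 by 2.11 and tlh2 by 1.38 (edgeR adjusted p = 0.0358). Tlh2 was read at 0.207 to 0.324 CPM at 25 min and 0.265 to 1.32 CPM at 0 min, so its groups overlapped.

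The other transcription factor gene, SPBC1348.12, rose in RNA1 wild type. It had 8.54, 8.04 and 9.07 CPM at 0 min, 14.9, 14.1 and 14.99 CPM at 5 min and 15.7, 21.3 and 22.6 CPM at 25 min. The log2 change was 0.78 ± 0.20 at 5 min (edgeR adjusted p = 0.00144) and 1.21 ± 0.19 at 25 min (edgeR adjusted p = 1.27e-06). In RNA2 wild type it had 10.1, 12.5 and 9.66 CPM at 5 min and 9.18, 13.2 and 9.84 CPM at 0 min, and was not called. SPAC186.04c rose by 1.32 ± 0.33 at 5 min and 2.27 ± 0.31 at 25 min in RNA1 wild type, to 5.43, 6.52 and 6.67 CPM at 25 min, against 1.14, 0.883 and 1.83 CPM at 0 min. SPAC186.08c, a lactate dehydrogenase gene, was called as higher at both times in RNA1 (2.37 ± 1.00 and 2.96 ± 0.89, edgeR adjusted p = 0.0478 and 0.00403), from very few reads. It had 1, 0 and 1 reads at 0 min, 1, 8 and 1 at 5 min and 3, 10 and 5 at 25 min. The 5 min call thus rests on 1 library.

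SPAC212.04c rose at 5 min in both wild type sets and in the clr4Δ-labelled libraries. The log2 changes were 0.62 ± 0.18 in the clr4Δ-labelled libraries, 0.66 ± 0.19 in RNA1 and 0.75 ± 0.20 in RNA2 wild type (edgeR adjusted p = 0.00791, 0.00372 and 0.00409). In the atf1Δ-labelled libraries it had 4.38, 3.07 and 3.87 CPM at 5 min and 4.81, 4.52 and 4.72 CPM at 0 min, and its response differed from wild type by −1.02 ± 0.24 (edgeR adjusted p = 0.00392). SPBCPT2R1.04c, of the same copy family, rose by 0.85 ± 0.27 in the clr4Δ-labelled libraries and by 0.92 ± 0.35 in RNA2 wild type. In RNA1 wild type its log2 difference was −0.08 ± 0.36 and was not called. The non-coding RNA prl61 fell by 2.52 at 5 min in RNA2 wild type (edgeR adjusted p = 0.0175), at 0 to 0.203 CPM against 0.584 to 0.832 CPM. Of the 21 tested heterochromatin and RNA interference genes, none rose and 9 fell at 5 min in the clr4Δ-labelled libraries (30.2% of all genes). Clr4 itself was among the 9, with a log2 change of −0.67 ± 0.08 (edgeR adjusted p = 5.68e-08). In RNA2 wild type 1 rose and 7 fell at 5 min (27.2% of all genes called). In RNA1 wild type 4 rose and 8 fell at 5 min (48.4% of all genes), and 11 rose and 3 fell at 25 min (67.3%).

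By signal, 3 genes were higher and 3 lower at 5 min in the clr4Δ-labelled libraries and 2 higher and 4 lower in RNA2 wild type (limma), where 23.6% and 21.8% of all genes were called. With replicate number as a block the wild type count was 11, and it was 3 without RNA2 0 min replicate 3. Gal1 rose by 1.30 ± 0.22 in the clr4Δ-labelled libraries and by 1.25 ± 0.22 in wild type. The glycoprotein genes pfl6 and SPBC1348.08c, which the counts could not test, fell by 0.71 and 0.77 in the clr4Δ-labelled libraries and by 0.79 and 0.91 in wild type (limma adjusted p from 0.0032 to 0.018).

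The difference in heat response at 5 min between the clr4Δ-labelled libraries and RNA2 wild type was called for none of the 28 genes by counts (edgeR; 2 genes at an unadjusted p under 0.05) and for none of 62 by signal (limma; 1 gene). Over all genes 0.0162% were called by counts and 0% by signal. Tlh2 averaged 56.2 ± 5.22 CPM at 0 min, 58.7 ± 8.49 at 2.5 min and 59.4 ± 9.33 CPM at 5 min in the clr4Δ-labelled libraries (SD, n = 3 each). With the atf1Δ label the response was lower than in wild type for 3 of the 28 genes, SPAC212.04c, SPBC1348.12 and gal1, where 8.96% of all genes were called. With the pcr1Δ label it was lower for 3 genes, SPAC212.04c, SPAC186.04c and gal1, where 7.19% were called, and for 6 with replicate number as a block. In both cases 10.7% of the 28 genes were called, among genes that could pass the filter through the clr4Δ-labelled libraries alone. Against RNA2 wild type alone, 1 gene was called with the atf1Δ label and 0 with the pcr1Δ label. The 2 comparisons share the wild type libraries. The atf1 count was 1 without 5 min replicate 2.

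In the pcr1Δ-labelled libraries 1 gene rose and 3 fell after 5 min, against 27.4% of all genes called. Gal1 rose and SPNCRNA.1697 fell, as given above, and gdt1 fell by 0.48 and ght7 by 1.02. The count was 1 without 0 min replicate 1 or 5 min replicate 2 or 3, and 2 without 0 min replicate 3.

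Before heat, the atf1Δ-labelled libraries differed from the mean of the wild type groups in 13 of the 28 genes, 6 higher and 7 lower (edgeR; 44.5% of all genes called), and the pcr1Δ-labelled libraries in 11, 4 higher and 7 lower (38.3%). These shares of the 28 genes, 46.4% and 39.3%, lie near those over all genes, but genes could pass the filter through the clr4Δ-labelled libraries alone. These comparisons were added after the values had been seen and share the wild type libraries, and RNA1 itself differed from RNA2 wild type at 0 min in 3 of the 28 genes, 2 higher and 1 lower (23.6% of all genes). Several of the larger differences lay at the left end of chromosome II. Grt1 had 5.28, 3.51 and 2.58 CPM in the atf1Δ-labelled libraries and 1.504, 1.23 and 1.80 CPM in the pcr1Δ-labelled libraries, against 11.4 to 22.8 CPM in the 6 wild type libraries. The log2 differences were −2.13 ± 0.26 and −3.44 ± 0.30 (edgeR adjusted p = 4.38e-08 and 3.82e-11). Fah1 differed by −1.98 and −3.07 and SPBPB8B6.02c by −2.21 and −3.86.

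Its neighbours ght7 and SPBC1348.12 stood higher instead. Ght7 averaged 7.73 ± 2.28 CPM in the atf1Δ-labelled and 6.24 ± 1.40 CPM in the pcr1Δ-labelled libraries, against 1.66 ± 0.641 in RNA1 and 2.23 ± 1.40 CPM in RNA2 wild type (SD, n = 3 each; log2 differences 1.98 ± 0.31 and 1.68 ± 0.32, edgeR adjusted p = 3.89e-06 and 7.46e-05). SPBC1348.12 differed by 1.61 ± 0.15 and 0.73 ± 0.16. Gal1 differed by −1.86 ± 0.23 and −1.50 ± 0.22, and pdc102, a pyruvate decarboxylase gene, by 2.05 ± 0.51 and 2.82 ± 0.46. Strain and set cannot be told apart in these values either. In the unheated clr4Δ-labelled libraries of the same set, grt1, fah1, SPBPB8B6.02c and gal1 were called as higher than with the other 2 labels. Ght7 and SPBC1348.12 were called as lower. None of these genes was called between the clr4Δ label and RNA2 wild type, with grt1 averaging 10.5 and 15.5 CPM. Pdc102 was called in neither comparison. SPAC750.01, at 2.38 and 2.49, was instead as high in the clr4Δ-labelled libraries.

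The windows from 250 bases before to 50 bases after the starts of 79 of the 81 genes were searched on both strands for 3 motifs. TGACGT, the sequence bound by Atf1 and Pcr1, was in 7 of 79 windows (8.86%), against 5.49% of all 12605 annotated windows. Those 7 belong to SPNCRNA.70, SPAC212.02, SPAC186.02c, SPNCRNA.96, SPAC186.06, SPAC186.07c and SPBCPT2R1.02; of these only SPAC186.06 was tested by counts. GAANNTTC, a core of the heat shock element, was in none of the 79 windows, against 11.9% of all. TTACAGG, a core of the fission yeast telomere repeat, was in 4 of 79 (5.06%), against 2.52% of all.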

How the data were processed

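Messenger RNA was measured in 39 libraries in 13 groups of 3. The deposited counts are unscaled reads per gene that map to 1 place, 1 file per library. The deposited signal, in 18 files, is an unscaled value of about 50 units per read that also holds reads mapping to several places. How either was made is not stated beyond the submitters' processing notes, which give build ASM294v2 and list STAR, deepTools, bedtools 2.17.0, Trimmomatic 0.33 and Bowtie 0.12.9. Gene positions are those of the deposited files, and sequences come from RefSeq in build ASM294v3, in which 49 of the 81 genes have the same start and end. CPM here is counts scaled to 1000000 per TMM-adjusted library size, which is the counts in genes times the TMM factor; shares of reads use the counts in genes. The share of reads mapping to several places, which the counts leave out, was 6.80% to 21.2% per library, and 1.19% to 2.49% fell in no gene.

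Counts were tested with edgeR 4.0.16 (R 4.3.3, quasi-likelihood, TMM, filterByExpr with a minimum count of 10 and total of 15) over all 39 libraries with 13 group means. Signal was tested with limma 3.58.1 (trend) on log2(TMM-scaled signal + 50), without genes of a mean signal under 500. P-values are 2-sided and were adjusted over all genes by Benjamini and Hochberg, with a threshold of 0.05. An exact permutation test of 3 libraries against 3 cannot go below p = 0.1. Copies were found with BLAST 2.17.0. The tests were first tried on simulated data. Depth limits low genes: a count of 0 is set against a floor of 3 counts, which covers counting error only.

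Alternatives were other scalings, no filter, other pseudocounts, DESeq2 1.42.0, fitting only the groups compared, a replicate block and leaving out each library. Same-numbered libraries deviated together within RNA1 wild type (r 0.25 to 0.51), RNA2 wild type (0.30 to 0.67), the clr4Δ-labelled (0.33 to 0.60) and the pcr1Δ-labelled libraries (0.13 to 0.43). This was less clear in the atf1Δ-labelled libraries (lowest r 0.03) and between strains (−0.001 to 0.20). The main fits nevertheless used no replicate block and so leave this pairing out. The block was run only as an alternative, for all strains, those labelled atf1Δ included. The genes named are the 4 nearest each end, up to 10 called genes per comparison with the largest change at 10 CPM or more (no minimum for signal), and genes described as part of their class. Genes and lists were chosen with earlier results of these data known. The comparisons of RNA1 with RNA2 wild type and of the atf1Δ and pcr1Δ labels with wild type at 0 min were added after the data had been seen.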

Additional observations from a re-analysis of the deposited data

Results flagged for a closer look

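The change between 0 and 5 min of heat differed from the mean wild type change, by a test of the difference itself (edgeR), in 6 cases among the 28 genes tested. In the libraries labelled atf1Δ the log2 difference was −1.02 for SPAC212.04c, −0.81 for SPBC1348.12 and −1.13 for gal1. In the libraries labelled pcr1Δ it was −0.88 for SPAC212.04c, −1.97 for SPAC186.04c and −1.12 for gal1. Strain and set cannot be told apart, and both comparisons use the same wild type libraries. Against RNA2 wild type alone, 1 gene was called with the atf1Δ label and 0 with the pcr1Δ label, so at least 5 of the 6 calls were lost.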

How the results depend on the processing

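No count or gene value changed direction under any alternative run. Of 404 alternatives for 67 gene values, 392 kept their side of the threshold, 11 lost it and 1 gained it, and of 480 values with a library left out, 438 kept it and 42 lost it. With replicate number as a block the number of subtelomeric genes called was 1 rather than 0 at 2.5 min in the clr4Δ-labelled libraries and 1 rather than 0 in RNA2 wild type, 6 rather than 3 for the pcr1 response, 5 rather than 3 between RNA1 and RNA2, 5 rather than 1 after 5 min with the atf1Δ label, and 11 rather than 6 by signal after 5 min in wild type; the block gave SPBCPT2R1.10 a call by signal at 1.57 and otherwise moved no count by more than 1.5 times. The atf1Δ-labelled 5 min count of 1 was 2 with DESeq2-type size factors, 3 with library totals, 2 with no filter, 2 with only the groups compared and 2 with DESeq2. Only the groups compared gave 3 calls for RNA2 wild type at 5 min, 10 for the clr4Δ label against wild type and 3 for the clr4Δ label at 5 min. Against RNA2 wild type alone the atf1 response had 1 call and the pcr1 response 0. The causes were not tested. Leaving out single libraries gave 3 to 6 calls for RNA2 wild type at 5 min, 3 to 5 for the clr4Δ label at 5 min, 1 to 3 for the atf1Δ label at 5 min, 1 to 4 for the pcr1Δ label at 5 min, 1 to 3 for the atf1 response, 12 to 18 for the clr4Δ label against wild type by counts and 28 to 34 by signal, and 3 to 6 by signal in wild type at 5 min. Genes with few unique reads limit the counts, and shared reads limit the signal.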
